A study of Mus musculus with 8 samples.

Results

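Brown adipose tissue of the mouse, the fat that burns fuel for warmth, was examined for 6 genes that activate, inactivate, import or sense thyroid hormone. They are the deiodinases Dio1, Dio2 and Dio3, the transporter Slc16a10, and the receptors Thra and Thrb, and they were taken by symbol as 6 of the 21759 genes on the array. Each has 1 transcript cluster, a set of probes along a gene that is read as one value, so no choice between clusters was needed. The mice were C57BL/6 males, and the array type was Affymetrix Mouse Gene 1.0 ST, with 4 arrays for the group labelled NCD and 4 for the group labelled HFD, and the series title spells out HFD as high-fat diet. What NCD stands for is left unsaid, and the labels give no age, no length of feeding and no word on whether each array is a separate animal, so the p-values rest on a spread that may be technical. No genetic change or drug is named for either group.

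The thyroid gland secretes mainly thyroxine, a prohormone that cells must take up and convert. Dio2 removes an outer-ring iodine inside the cell and so makes triiodothyronine, the form that binds the nuclear receptors. Dio3 removes an inner-ring iodine and ends the hormone's action, and Dio1, best known in liver and kidney, can do both. In brown adipocytes, noradrenaline raises Dio2 through cyclic AMP, and the triiodothyronine made there acts with the adrenergic signal on Ucp1 and on genes of fat synthesis. Membrane carriers of the Slc16 family bring the hormones in, and Thra and Thrb bind DNA as partners of the retinoid X receptors.

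Most genes that mark brown adipocytes were above the level of unexpressed genes. Of the 10 brown adipocyte markers, 8 had means over the 8 arrays above 6.46, the log2 value below which 95% of 1119 olfactory receptor genes fell. Those receptors served as a stand-in for unexpressed genes. Zic1 and Lhx8 lay under 6.46, and Elovl3 lay above that value on each NCD array but under it on each HFD array (5.33 to 6.22). The average log2 level over the 10 markers was 8.83 to 9.12 on the NCD arrays and 8.64 to 8.87 on the HFD arrays, overlapping ranges with the lower values in HFD. Skeletal muscle markers stood apart on an array in each group: their average over 12 genes was 9.24 on NCD 1 and 9.91 on HFD 3, against 5.39 to 5.88 on the other arrays. Averages of macrophage, endothelial, fibroblast, white adipocyte and nerve markers overlapped between the groups. Values on NCD 3 were spread most widely, with a standard deviation of 1.82 over clusters. In whole tissue, fewer cells of a type and less RNA per cell cannot be told apart.

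None of the 6 genes passed the test for a diet difference. In limma's fit over all genes, 0 of the 6 passed an adjusted p of 0.05 in either direction, while 31 of 21759 genes did, or 0.142% (0.133% lower and 0.00919% higher in HFD). At an unadjusted p under 0.05 the count was also 0 of 6, against 7.24% of all genes (4.52% lower and 2.73% higher). The methods' t-test called 0 of all 21759 genes after adjustment, so it could call none of the 6. The HFD and NCD arrays overlapped for each of the 6, where groups of arrays did not overlap for 3.83% of all genes. Differences, HFD minus NCD on the log2 scale, ran from -0.225 for Thrb to 0.125 for Thra, with a median of -0.025 beside -0.01 over all genes tested. The widest unadjusted 95% interval among the 6, that of Dio2, reached 0.333 to either side of its difference. A p that misses the threshold does not show that the diets act alike.

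**Figure D1:**
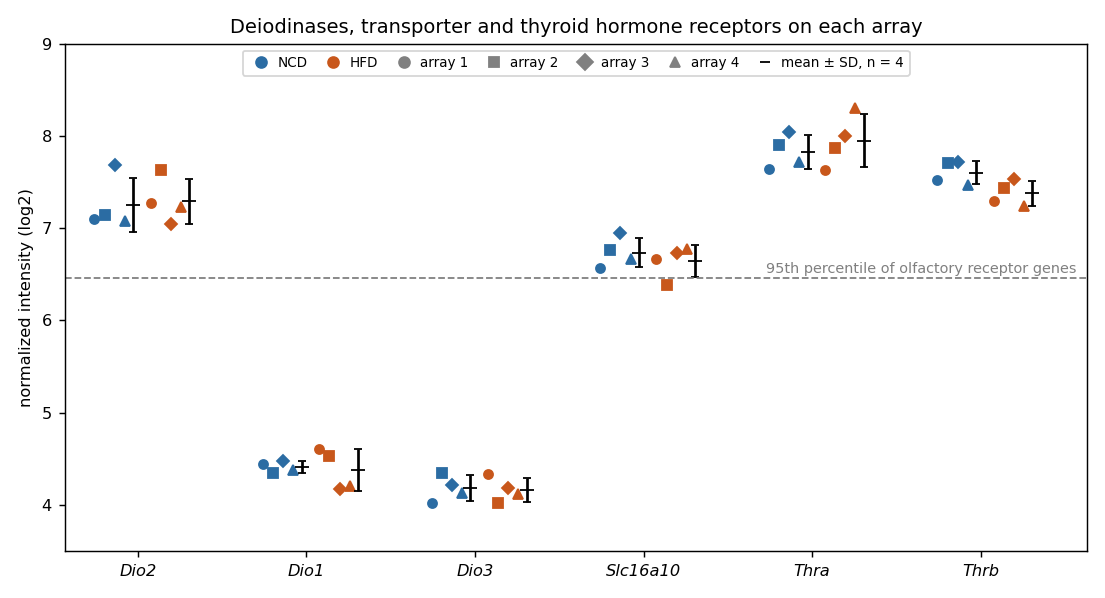
Normalized log2 intensity of the 6 genes (y axis) on each of 8 arrays, NCD in blue and HFD in orange, with marker shapes for array numbers and black bars for mean ± SD (n = 4). Dio2, Slc16a10, Thra and Thrb have means above the dashed line at 6.46, Dio1 and Dio3 lie far under it, and the groups overlap for every gene.

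Dio2, the enzyme that makes triiodothyronine within brown adipocytes, was measured above the level of olfactory receptors in both diets. Its RefSeq start is on the minus strand of chromosome 12. The 300 bases at chr12:90738989-90739288 (GRCm38.p6, from RefSeq) are shown because cyclic AMP is the best known control of this gene. They run 5′ to 3′ from 250 bases before the start to 50 after it. Capitals mark a full cyclic AMP response element, TGACGTCA, and a TATA box, TATAAA.
Dio2: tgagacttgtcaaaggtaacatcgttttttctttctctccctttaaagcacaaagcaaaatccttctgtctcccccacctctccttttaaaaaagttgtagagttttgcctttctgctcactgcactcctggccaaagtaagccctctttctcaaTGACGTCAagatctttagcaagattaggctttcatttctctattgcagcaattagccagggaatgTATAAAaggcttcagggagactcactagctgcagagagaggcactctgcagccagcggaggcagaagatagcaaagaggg
The response element, searched on both strands, begins 95 bases before the start and was found in 1.79% of 32851 RefSeq windows of this length. The TATA box begins 30 bases before the start and its letters, also searched on both strands, were found in 13.6% of windows. Of the 6 windows that RefSeq gives for 5 of the members, the one of Dio2 alone held TGACGTCA. TATAAA was also found in the window of Dio3, from 31 bases before the start, and in a window of Thrb, from 167 bases before. The 2 motifs marked in Dio2 do not overlap, and a match describes these letters only.

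On the NCD arrays the log2 level of Dio2 was 7.10, 7.14, 7.69 and 7.08 (arrays 1 to 4). On the HFD arrays it was 7.27, 7.63, 7.05 and 7.23. NCD 3 and HFD 2 stood above the other 6 arrays, and the lowest value of all, 7.05, was also in HFD. The group means were 7.25 ± 0.29 (SD, n = 4) for NCD against 7.295 ± 0.24 (SD, n = 4) for HFD. The difference was 0.04 ± 0.16 (SE, limma adjusted p = 0.977; exact two-sided permutation p = 0.714, n = 4 per group). Its 95% interval spans HFD-to-NCD ratios from 0.818 to 1.30. The sign of so small a value turned with single arrays: it was 0.19 without NCD 3 and -0.07 without HFD 2. Dio2 varied more between arrays of a diet than most genes, since 11.7% of all genes had a larger within-group standard deviation. Muscle markers were high on NCD 1 and HFD 3, where Dio2 read 7.10 and 7.05. They were not high on NCD 4, where Dio2 read 7.08, and a link between them and Dio2 was not tested. Without NCD 1 and HFD 3 the difference of Dio2 was 0.07. The deposited cluster of Dio2 lies on chromosome 12, from 91962992 to 91976878 on the minus strand by the file's own coordinates. No source used here names their build, and the positions of single probes within exons were not used here.

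The other deiodinases were at the level of unexpressed genes. Dio1 read 4.44, 4.34, 4.48 and 4.38 on the NCD arrays and 4.61, 4.53, 4.17 and 4.2 on the HFD arrays, and 44.6% of olfactory receptor genes were dimmer. Dio3, the inactivating enzyme, read 4.02, 4.35, 4.22 and 4.13 in NCD and 4.33, 4.02, 4.18 and 4.12 in HFD, with 36.1% of olfactory receptors dimmer. For Dio1 the HFD arrays lay on both sides of the NCD range, and for Dio3 the ranges of the groups overlapped. No fold is given at this level. The log2 differences were -0.03 ± 0.12 for Dio1 and -0.02 ± 0.12 for Dio3 (SE, limma adjusted p = 0.977 and 0.989). The file places Dio1 on chromosome 4 (106964070 to 106979773, minus strand) and Dio3 on chromosome 12 (111517440 to 111519307, plus strand).

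Slc16a10, a carrier of aromatic amino acids that also moves triiodothyronine and thyroxine, lay just above the olfactory level. Its log2 values were 6.57, 6.76, 6.95 and 6.67 in NCD and 6.67, 6.39, 6.73 and 6.78 in HFD. NCD 3 was the highest and HFD 2 the lowest, the latter under 6.46, and the groups overlapped. The difference was -0.095 ± 0.12 (SE, limma adjusted p = 0.911; exact permutation p = 0.486, n = 4 per group), with HFD-to-NCD ratios from 0.779 to 1.13 in the 95% interval. The value was -0.02 without NCD 3, -0.01 without HFD 2, and 0.02 without NCD 2 and NCD 3. The cluster lies on chromosome 10, from 39756277 to 39862064 on the minus strand in the file.

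Thra, the receptor form that predominates in heart, muscle and brain, was bright in both diets. It read 7.64, 7.90, 8.05 and 7.72 in NCD and 7.63, 7.87, 8.0 and 8.31 in HFD. HFD 4 was highest and HFD 1 lowest, so the HFD arrays enclosed all those of NCD. The means were 7.83 ± 0.18 and 7.95 ± 0.28 (SD, n = 4 each), a difference of 0.125 ± 0.15 (SE, limma adjusted p = 0.901; exact permutation p = 0.571, n = 4 per group). The difference fell to 0.01 without HFD 4 and stood at 0.27 without NCD 2 and NCD 3. The single cluster (chromosome 11, 98603187 to 98630320, plus strand in the file) covers the gene as a whole, so its hormone-binding and non-binding isoforms were not separated. RefSeq has Thra overlapping its neighbour Nr1d1, and the strand of the probes was not used here.

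Thrb, the receptor form best known for control of metabolism in liver, came nearest to a diet difference of the 6. Its log2 levels were 7.52, 7.71, 7.72 and 7.47 in NCD and 7.30, 7.44, 7.54 and 7.24 in HFD. HFD 1, HFD 2 and HFD 4 lay under every NCD array, and HFD 3, at 7.54, overlapped the NCD range. The means were 7.605 ± 0.13 and 7.38 ± 0.14 (SD, n = 4 each), a 1.17-fold lower level in HFD. The difference of -0.225 ± 0.12 (SE) had an unadjusted limma p of 0.07 and an adjusted p of 0.719, with an exact permutation p of 0.0857 (two-sided, n = 4 per group; the smallest possible is 0.0286). In the authors' deposited table, the p for diet of Thrb was 0.05 and its fold -1.17. The difference kept its sign under all 21 alternatives, from -0.31 without NCD 1 and HFD 3 to -0.115 without NCD 2 and NCD 3, and its adjusted p ran from 0.473 to 0.970, although the unadjusted limma p was 0.0445 without NCD 1 and HFD 3. The average of brown adipocyte markers was lower in HFD (8.73 against 8.96). Elovl3 had the largest difference among them (-1.385), and the median difference over the 10 markers was -0.112. Of those 10 markers 1 fell, Elovl3, an elongase of very long fatty acids (limma adjusted p = 0.00673), and 0 rose, and their part in the difference of Thrb was not tested. The cluster lies on chromosome 14, from 18758162 to 18870600 on the plus strand in the file.

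**Figure D2:**
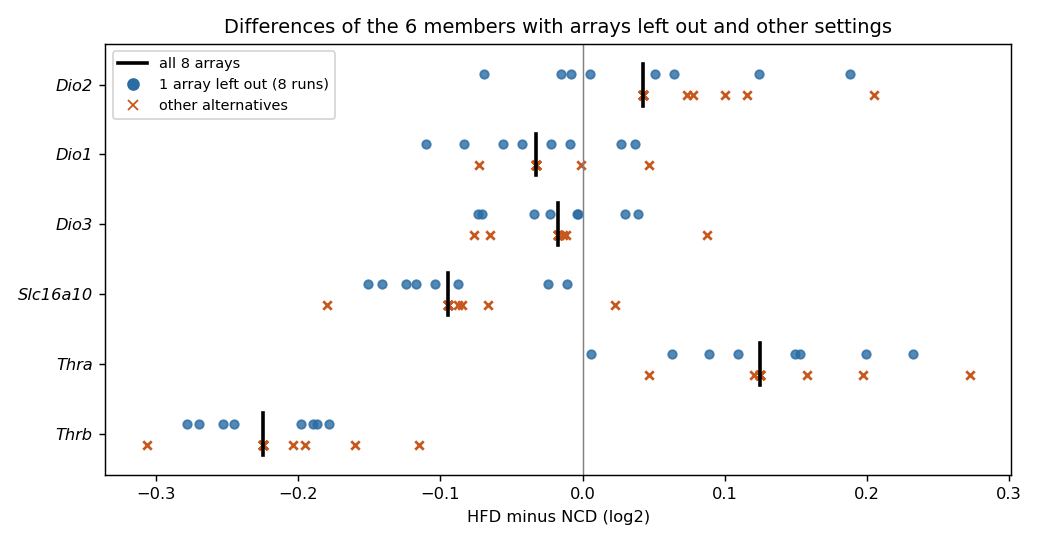
Difference of each of the 6 genes, HFD minus NCD in log2 units (x axis), from all 8 arrays (black bars), with 1 array left out (blue points, 8 runs) and under the other alternatives (orange crosses). Thrb stays left of 0 throughout and Thra right of it, whereas Dio1, Dio2, Dio3 and Slc16a10 have values on both sides.

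Among the 4 genes above the olfactory level, NCD 3 was the highest NCD array each time. This is not particular to them. The averages of brown adipocyte (9.12), macrophage, endothelial and fibroblast markers were also highest on NCD 3 among the NCD arrays. Those of white adipocyte, muscle and nerve markers were not, and the share over all genes was not counted. No relation between the 4 genes passed after adjustment. Of 6 pairwise relations over the 8 arrays, the closest was between Thra and Slc16a10 (Pearson r = 0.488, exact permutation p = 0.215, adjusted 0.973; Spearman rho = 0.767, exact permutation p = 0.0323, adjusted 0.194; n = 8). Its r was 0.564 without the 2 arrays farthest from the median of Thra, and 4 arrays per diet are too few for a value within a diet. A search for similar genes left out those with predicted or clone names and the olfactory and vomeronasal receptors. Among the remaining 6851 genes above the olfactory level, it gave those whose values were most like each member's over the 8 arrays. For Dio2 they were Kctd12b (r = 0.952), Taok2 (0.927) and Dctpp1 (0.918). For Slc16a10 they were Sra1 (r = 0.987), Glyr1 (0.983) and Cpsf6 (0.982). For Thra they were Dpy19l1 (r = 0.98), Cdc42bpa (0.97) and Fli1 (0.965), and for Thrb Dnajb4 (r = 0.958), Slc25a32 (0.957) and Naa16 (0.94). These are the extremes of a large search over 8 arrays that share a normalization, and they describe likeness only.

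None of 18 genes that carry signals to Dio2 passed the threshold, where 0.142% of all genes did. Lower means in HFD were found for 12 of them and higher ones for 6, with a median difference of -0.06, and at an unadjusted p under 0.05 there were 2 genes, both lower, where 4.52% of all genes were lower at that p. Lower means were found for 11433 of the 21759 genes. Adrb3, the adrenergic receptor typical of adipocytes, read 8.38, 8.49, 8.64 and 8.61 in NCD and 7.71, 8.17, 8.53 and 8.11 in HFD. HFD 1 was lowest and HFD 3 reached into the NCD range, and the difference was -0.40 ± 0.15 (SE, limma adjusted p = 0.566). Prkaca, the catalytic subunit of protein kinase A that acts downstream of cyclic AMP, differed by -0.30 ± 0.11 (SE, limma adjusted p = 0.521), and its NCD arrays (8.03 to 8.23) lay above its HFD arrays (7.76 to 7.96). Adcy3, an adenylyl cyclase, differed by -0.265 (limma adjusted p = 0.718).

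Genes that set the stability and the making of the Dio2 protein showed 0 calls, where 0.142% of all genes were called. The Dio2 enzyme is ubiquitinated and degraded when it meets thyroxine, and it carries selenocysteine. In the turnover list 10 of 12 genes had lower means and 2 higher ones, where 11433 of all 21759 genes had lower means. The median was -0.08, with differences between -0.222 and 0.145, and it ran from -0.15 to -0.0075 over the alternatives. The file names 2 clusters for Ube2j2, a ubiquitin-conjugating enzyme of the endoplasmic reticulum. The brighter one, which stood for the gene, lies on chromosome 14 (56629000 to 56630188), away from the gene's RefSeq place on chromosome 4, and differed by -0.22 (limma adjusted p = 0.713). The cluster on chromosome 4 was dim, at a mean of 5.24, and differed by -0.26 (limma adjusted p = 0.742 when it stood for the gene). Rbx1 and Tceb2, parts of cullin ubiquitin ligases, differed by -0.22 and -0.19 (limma adjusted p = 0.791 and 0.784). The brighter cluster of Tceb2 is also a short one, and the longer one differed by -0.27 (limma adjusted p = 0.766). In the selenoprotein synthesis list 7 of 10 genes had lower means and 3 higher ones, with a median of -0.035. Secisbp2, which binds the selenocysteine insertion element, differed by -0.205, and Scly, which frees selenium from selenocysteine, by -0.165. Both had means under the olfactory level. Sepsecs, which makes selenocysteine on its transfer RNA, differed by -0.25 (limma adjusted p between 0.810 and 0.825 for these genes).

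Other carriers and hormone-binding proteins gave 0 calls among 15 and 7 measured genes, where 0.142% of all genes were called. Lower means were found for 9 carriers, Slc16a10 among them, and higher ones for 6 (median -0.095), and 4 of the 15 lay above the olfactory level. Of all 21759 genes, 11433 had lower means. Slc16a1, the lactate and pyruvate carrier of the same family, read 8.77 to 9.0 in NCD and 8.28 to 8.58 in HFD, without overlap (difference -0.475 ± 0.11 (SE), limma adjusted p = 0.166). Slc3a2, the heavy chain shared by amino acid carriers that also move iodothyronines, differed by -0.26 (limma adjusted p = 0.718). Slco1b2, an organic anion carrier of liver, was below the olfactory level in both diets.

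Sult1a1, a sulfotransferase of phenols that also acts on iodothyronines, had the smallest p of the binding and conjugation list. Its levels were 7.76, 8.07, 8.09 and 7.70 in NCD and 8.35, 8.11, 8.41 and 8.70 in HFD, with every HFD array above every NCD array. The difference of 0.4875 ± 0.14 (SE) did not pass (limma adjusted p = 0.338). Alb, the serum albumin gene, varied from 6.08 to 8.15 over the arrays with overlapping groups (difference 0.55 ± 0.33 (SE), limma adjusted p = 0.788). Ttr, a plasma carrier of thyroxine, was under the olfactory level. Of this list 5 genes had higher and 2 lower means, where 10166 of all 21759 genes had higher means.

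None of 18 retinoid X receptors, corepressors and coactivators passed, where 0.142% of all genes did. Lower means were found for 12 and higher ones for 5, where 11433 of all 21759 genes had lower means. Differences in the list ran from -0.138 to 0.112, and the median was -0.02. Gps2, a subunit of the corepressor complex, differed by -0.14, Tbl1xr1, another subunit, by -0.095, and Carm1, a methyltransferase that acts as a coactivator, by 0.11 (limma adjusted p between 0.871 and 0.918). The brighter cluster of Tbl1xr1 is a short one, and the longer one (mean 6.81) differed by -0.0475.

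**Figure D3:**
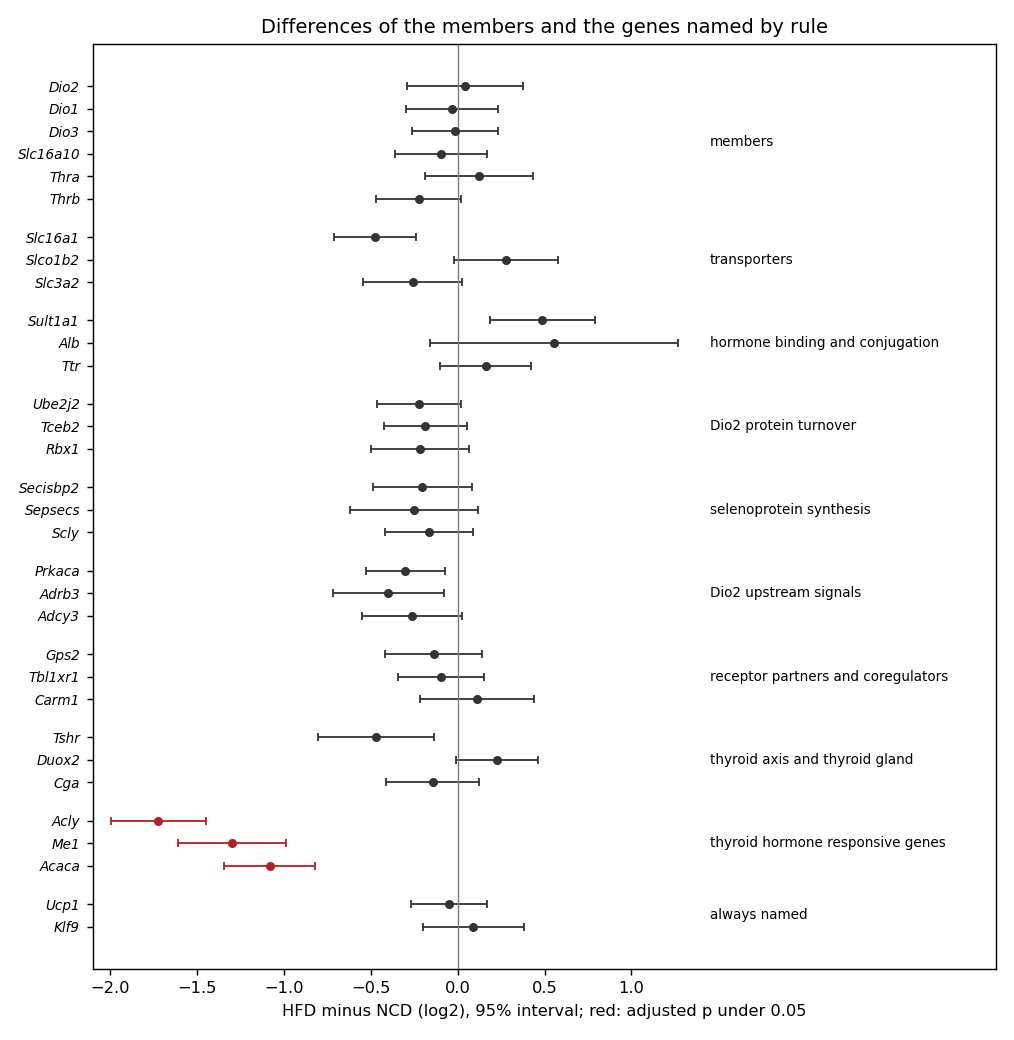
HFD minus NCD in log2 units with 95% intervals (x axis) for the 6 members and the genes named by rule from each list, each at its brightest cluster. Acly, Me1 and Acaca, in red, passed an adjusted p of 0.05 and lie below -1, while the intervals of the 6 members include 0.

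Genes of the thyroid axis and of the thyroid gland were dim except for Tshr, the receptor for thyrotropin, which brown adipocytes also carry. Tshr read 7.35, 7.45, 7.24 and 6.84 in NCD and 6.43, 6.62, 6.91 and 7.03 in HFD. NCD 1, NCD 2 and NCD 3 lay above every HFD array, while NCD 4 fell within the HFD range. The difference was -0.47 ± 0.16 (SE), with an unadjusted limma p of 0.00868 and an adjusted p of 0.480, where 4.52% of all genes were lower at an unadjusted p under 0.05. The other 12 genes of this list, among them thyroglobulin (Tg), had means under the olfactory level. Duox2, an oxidase of the gland, and Cga, the common subunit of pituitary hormones, were among them, with differences of 0.225 and -0.145 (limma adjusted p = 0.702 and 0.857).

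Of 22 measured genes known to respond to thyroid hormone 5 fell, 0 rose and 17 did not pass, with a median difference of -0.165, and 29 of all 21759 genes fell (0.133%). The 5 that fell are genes of fatty acid synthesis, which many other signals also control: Acly, Me1, Acaca, Fasn and Thrsp. Fasn and Thrsp were chosen after their values were seen. The list was drawn up with these falls already known, so their count is no independent evidence about thyroid hormone action. Acly, which makes cytosolic acetyl-CoA, fell by 1.72 on the log2 scale (limma adjusted p = 2.02e-05). Me1, the malic enzyme, fell by 1.30 and Acaca, acetyl-CoA carboxylase, by 1.08 (limma adjusted p = 0.00148 for both). The brightest cluster named Acaca lies on chromosome 12 (10158946 to 10165038), not on chromosome 11, where RefSeq has the gene. The cluster on chromosome 11 fell by 1.455 (limma adjusted p = 0.000316 when it stood for the gene).

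None of the other 17 passed, Dio1 and Adrb1 among them, which other lists also hold. Ucp1, the uncoupling protein, read 12.85 to 12.95 in NCD and 12.79 to 12.92 in HFD, with a difference of -0.05 and a 95% interval from -0.27 to 0.17 (limma adjusted p = 0.945). The sign depended on scaling, since the difference was 0.10 once all arrays had been given a common median and spread. These values lie toward the top of the range of the table, which runs from 2.2 to 13.79. Klf9, a transcription factor gene that responds to triiodothyronine in many tissues, read 7.22, 7.26, 7.75 and 7.26 in NCD and 7.29, 7.5, 7.40 and 7.66 in HFD. NCD 3 was again the highest array, and the difference was 0.09 ± 0.14 (SE, limma adjusted p = 0.929). The dimmer cluster named Klf9, on the other strand (mean 6.135, under the olfactory level), differed by -0.07. Cpt1a, the entry step of fatty acid oxidation in mitochondria, and Gpd2, the mitochondrial glycerol phosphate dehydrogenase, were chosen after their values were seen. Their groups did not overlap, as for 3.83% of all genes, with differences of 0.34 and -0.30 (limma adjusted p = 0.544 and 0.540). The dimmer cluster named Gpd2, on the other strand (mean 6.92), differed by 0.13, and its groups overlapped. Atp2a1, the calcium pump of fast muscle and also a muscle marker, was chosen after its values were seen. It read 10.33 on NCD 1 and 10.96 on HFD 3, against 5.79 to 6.36 on the other arrays, the same arrays on which muscle markers were high.

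**Figure D4:**
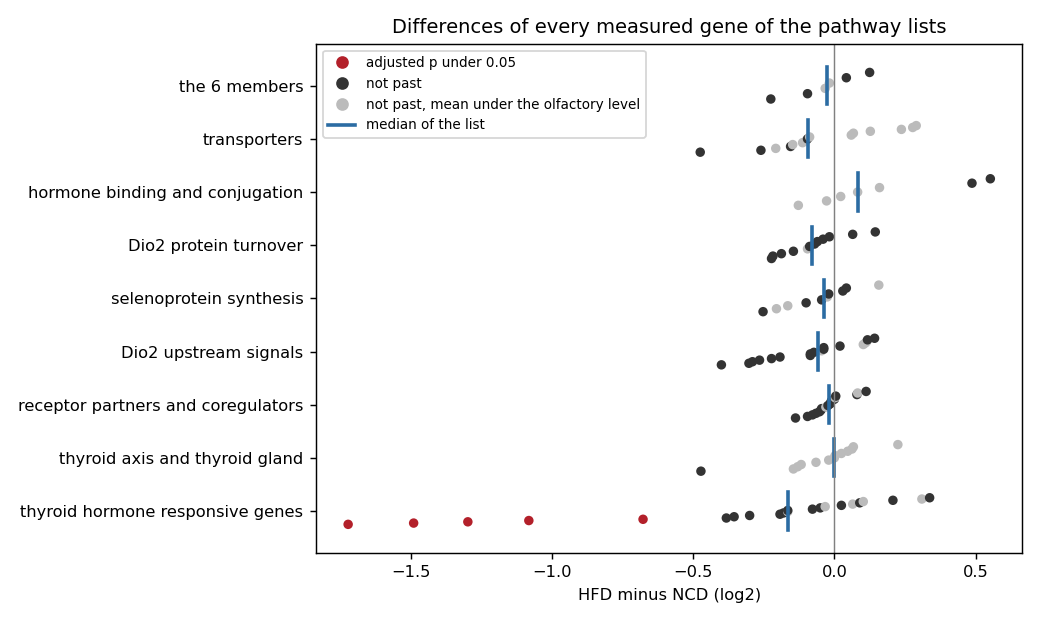
HFD minus NCD in log2 units (x axis) for every measured gene of the 6 members and of 8 pathway lists, with the median of each list as a blue bar; red points passed an adjusted p of 0.05 and grey points have means under 6.46. The 5 red points are all in the list of thyroid hormone responsive genes, at -0.68 or lower.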

How the data were processed

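RNA of 8 brown fat samples was measured on 8 arrays. The authors' steps were a log transformation and a quantile normalization, as stated in the design text of the series; the submitters' processing notes name Affymetrix Power Tools. No source used here gives a version, the summarization or the build. The deposited values are normalized log2 intensities, and the authors' table also holds a deposited p-value and a signed fold for diet. Both deposited tables held the same values.

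The brightest cluster of a name stood for each of 21759 genes. For 2 of 175 listed genes, Ube2j2 and Acaca, it lies off the gene's RefSeq chromosome. That check compared chromosomes only, not position or strand. Differences (HFD minus NCD) were fitted with lmFit and eBayes of limma 3.58.1 (R 4.3.3). The tests were two-sided, p-values were adjusted by Benjamini and Hochberg's method across the whole table, and the threshold was 0.05. Each member also had an exact permutation test over the 70 assignments of arrays (scipy 1.17.1). Errors beside means are standard deviations, and those beside differences are moderated standard errors. The number of arrays limits the precision: the median standard error was 0.127.

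The members and lists were chosen with earlier results of these data known. By rule, the members, the 3 genes of smallest p per list, Ucp1, Klf9, Tshr and the 3 genes most like each member were named. RefSeq accessions matched for 6 of 6 members. The steps were tested on simulated data. Alternatives covered the methods' t-test (named in the design text), the variance model, scaling, dim genes, clusters, array weights, the replicate block and arrays left out.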

Additional observations from a re-analysis of the deposited data

Results flagged for a closer look

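In 6 of the 64 groups of 4 arrays examined (the named genes in each diet), an array stood far from the rest by Dixon's criterion, which chance meets in about 1 of 20 groups. For Dio2, NCD 3 read 7.69 while the next NCD array read 7.14 and the lowest 7.08. NCD 3 was also the high array for Klf9, at 7.75 against 7.26 for the next, and for Slco1b2, at 3.73 against 3.44, a level under that of olfactory receptors. Ttr, under the same level, stood high on NCD 1 (5.83 against 5.49) and on HFD 2 (5.96 against 5.66). Adcy3 read 7.18 on HFD 4 and 6.86 on the next HFD array.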

How the results depend on the processing

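None of the 6 members passed the threshold in any of the 124 fits of a member under 21 alternatives (limma or the methods' t-test, adjusted over the genes tested), and 0 genes of the lists other than the responsive one did. Direction was not stable for the small differences. Over the runs that left out an array, Dio1 ran from -0.11 to 0.037, Dio2 from -0.069 to 0.19, Dio3 from -0.073 to 0.039 and Carm1 from -0.015 to 0.23. Without NCD 2 and NCD 3 the difference was 0.0875 for Dio3, 0.0225 for Slc16a10, 0.05 for Sepsecs and 0.03 for Tbl1xr1. Without NCD 1 and HFD 3 it was 0.047 for Dio1 and -0.01 for Carm1, and with equal median and spread it was 0.10 for Ucp1. List medians moved over the alternatives too. That of the turnover list ran from -0.15 to -0.0075 and that of the upstream list from -0.10 to -0.008. Those of the carriers (-0.21 to 0.02), selenoprotein synthesis (-0.09 to 0.06) and coregulators (-0.05 to 0.07) were among those that changed sign. The cause was not tested in these cases.

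The count over all genes, 31, was 0 with the t-test (1514 at an unadjusted p under 0.05), 70 with a variance trend and robust prior, 55 among genes above the olfactory level, and 3 without NCD 2 and NCD 3. The 5 responsive genes were 0 with the t-test and 1 without those arrays, which leaves fewer samples, and 4 to 5 under the other alternatives. With the longest cluster on a gene's RefSeq chromosome in place of the brightest, an alternative chosen after seeing the data, 28 genes passed, 5 of them responsive genes; the choice differed for 5 of 175 listed genes. Same-numbered arrays did not deviate together (correlations from -0.165 to 0.00249 across genes). The labels do not say whether the numbers pair the samples, and correlations over whole arrays cannot decide it. With the replicate block 36 genes passed, Dio2 kept a difference of 0.0425 (limma adjusted p = 0.982), and 0 members passed.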

Other observations

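The means of the receptors differed by diet in opposite directions, neither past the test, which prompted a comparison of their gap on each array after the values were seen. The log2 value of Thra minus that of Thrb was 0.12, 0.19, 0.33 and 0.25 on the NCD arrays and 0.33, 0.43, 0.46 and 1.07 on the HFD arrays. The HFD values lay at or above the highest NCD value, and HFD 4 was far above the rest. The gap averaged 0.22 ± 0.09 (SD, n = 4) for NCD against 0.57 ± 0.34 (SD, n = 4) for HFD, a difference of 0.35 with an exact two-sided permutation p of 0.0571. Adjusted over the 6 pairs of members above the olfactory level it was 0.343, so it did not hold up. The gap describes a change within arrays and sets neither gene's level against the other's.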
